A study of Homo sapiens with 6 samples.

Results

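The messenger RNAs of 10 genes of the AP-1 and immediate early response were followed in Cal27 cells, a human line from a squamous cell carcinoma of the tongue, after lentiviral knockdown of the RNA-binding protein DAZAP1. They were chosen with earlier results of these data known, and were taken by gene symbol. They comprise the JUN genes JUN, JUNB and JUND, the FOS genes FOS, FOSB, FOSL1 and FOSL2, and EGR1, IER3 and PHLDA1. All 10 were found once each among the 30947 genes of the deposited count table, and all 10 passed the filter on low counts that left 15374 genes for testing. RNA sequencing covered 3 DAZAP1 knockdown libraries and 3 negative control libraries, each from the same line grown in serum-containing medium. The control is named once as empty vector and once as a control sequence in the labels, they give neither the knockdown sequence nor the number of constructs, and nothing says that the libraries of a group came from separate cultures, so the p-values measure the spread between these libraries, which may be technical.

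AP-1 is a transcription factor made of paired bZIP proteins. JUN proteins can pair with one another or with FOS proteins, whereas FOS proteins pair mainly with JUN proteins, and the pairs bind a short palindromic DNA site. Many of these genes are immediate early genes: growth factors, serum and stress induce them within minutes through MAP kinases and factors already present on their promoters, and their messages decay quickly. In squamous epithelium and its carcinomas AP-1 is known for its part in proliferation, migration and differentiation.

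The targeted gene was checked first. DAZAP1 had 73.5, 77.7 and 67.4 CPM (counts scaled to a common library total with TMM factors) in the knockdown libraries, against 262.0, 277.4 and 256.5 CPM in the control libraries. It fell to 27.5% of the control level (log2 fold change -1.86, SE 0.038; adjusted p = 1.67e-39, edgeR). The libraries held 16333542 to 17815862 counts in the knockdown and 18547236 to 18955230 in the control. The squamous markers KRT5 and TP63 were abundant in all libraries, at means of 2143 and 297.8 CPM in the knockdown, against 1504 and 302.8 CPM in the control. KRT17 was at 332.1 CPM in the knockdown, against 142 CPM in the control, and KRT14 at 33.1 CPM, against 17.3 CPM. With KRT5, KRT17 and KRT14, KRT6A and CDH1 rose as well, EPCAM fell (log2 fold change -0.095), and TP63 and DSG3 did not pass the test. Among the leukocyte markers, 4 of the 5 (PTPRC, CD3E, LYZ and CD79A) held at most 6 counts in any library. The fifth, CD14, rose to 2.28 CPM in the knockdown, against 0.899 CPM in the control. Of the fibroblast markers COL1A1 rose to 14.4 CPM, against 9.35 CPM in the control, COL1A2 to 2.51 CPM, against 1.19 CPM, and PDGFRB to 1.24 CPM, against 0.359 CPM, while LUM did not pass the test. Of the endothelial markers CDH5 rose to 48.3 CPM in the knockdown, against 14.4 CPM in the control, VWF did not pass, and PECAM1 held at most 10 counts in any library. The part of these marker genes in the results below was not tested.

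The DNA just upstream of these genes is where signals are read into the immediate early response. RefSeq (GRCh38.p14) gave a promoter for 8 of the 10 genes. The 250 bases before each start were searched on both strands for TATAAA, for TGACG (the core of the cyclic AMP response element), for its full form TGACGTCA, for the AP-1 site TGACTCA, for TGACATCA (the AP-1-like site known from the JUN promoter) and for the CArG box bound by serum response factor, where TGACGTCA always contains TGACG. Shown are the stretches from base -150 to base -11, counted from the start, for the JUN gene that fell most, for the JUN gene that did not pass the test, for both immediate early FOS genes and for EGR1, with matches in capitals (CGTCA is TGACG on the other strand).
JUN, chr1:58784058-58784197, minus strand: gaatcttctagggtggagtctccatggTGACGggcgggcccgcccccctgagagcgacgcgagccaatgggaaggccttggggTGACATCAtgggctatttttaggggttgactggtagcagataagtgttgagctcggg
JUND, chr19:18281633-18281772, minus strand: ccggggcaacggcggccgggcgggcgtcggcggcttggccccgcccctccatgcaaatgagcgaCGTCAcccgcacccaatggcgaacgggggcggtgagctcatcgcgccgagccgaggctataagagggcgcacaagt
FOS, chr14:75278678-75278817, plus strand: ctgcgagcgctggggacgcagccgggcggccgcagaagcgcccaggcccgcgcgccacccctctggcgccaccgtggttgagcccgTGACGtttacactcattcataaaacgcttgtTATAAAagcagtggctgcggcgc
FOSB, chr19:45467846-45467985, plus strand: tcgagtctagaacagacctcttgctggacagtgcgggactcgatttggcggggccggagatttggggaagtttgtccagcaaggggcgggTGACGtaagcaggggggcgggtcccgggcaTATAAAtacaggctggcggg
EGR1, chr5:138465329-138465468, plus strand: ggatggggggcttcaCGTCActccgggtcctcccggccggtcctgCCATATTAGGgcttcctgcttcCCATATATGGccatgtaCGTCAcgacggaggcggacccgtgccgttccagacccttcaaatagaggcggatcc

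TGACG was found in 7 of the 8 promoters, all but that of PHLDA1, against 21.2% of the 35116 RefSeq promoters searched over the same length. In FOS and FOSB it lay at base -64 and base -60, upstream of a TATAAA at base -33 and base -30. TATAAA was found in 3 of the 8, the third being JUNB, against 10.7% of all promoters. EGR1 was the one gene of the 8 with CArG boxes in this window, a pair that starts at bases -105 and -83, against 1.16% of all promoters. JUND held the full TGACGTCA at base -200, outside the stretch shown, found in 1.65% of all promoters, and JUN held TGACATCA at base -67, found in 2.37%. The AP-1 site TGACTCA was in none of the 8 windows and in 4.2% of all promoters. These matches describe the letters only, and sites further upstream than these windows were not searched in any of the 8 genes.

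The knockdown libraries held less of these messages: 9 of the 10 genes fell at an adjusted p under 0.05 and none rose (edgeR quasi-likelihood test, Benjamini-Hochberg adjustment over all genes tested). Of all genes tested, 27.4% fell and 26.9% rose. The median log2 fold change of the 10 was -0.50, against 0.002 for all genes tested. Because the 10 were chosen with earlier results of these data known, their comparison with all genes is a description only. IER3, JUN and PHLDA1 lay within the lowest 5% of all fold changes, whereas JUNB, JUND and FOSL2 lay within the middle 50%. In 9 of the 10 genes all 3 knockdown values were below all 3 control values, which held for 29.4% of all genes tested. In bulk RNA, fewer cells with a message and less message per cell cannot be told apart.

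**Figure D1:**
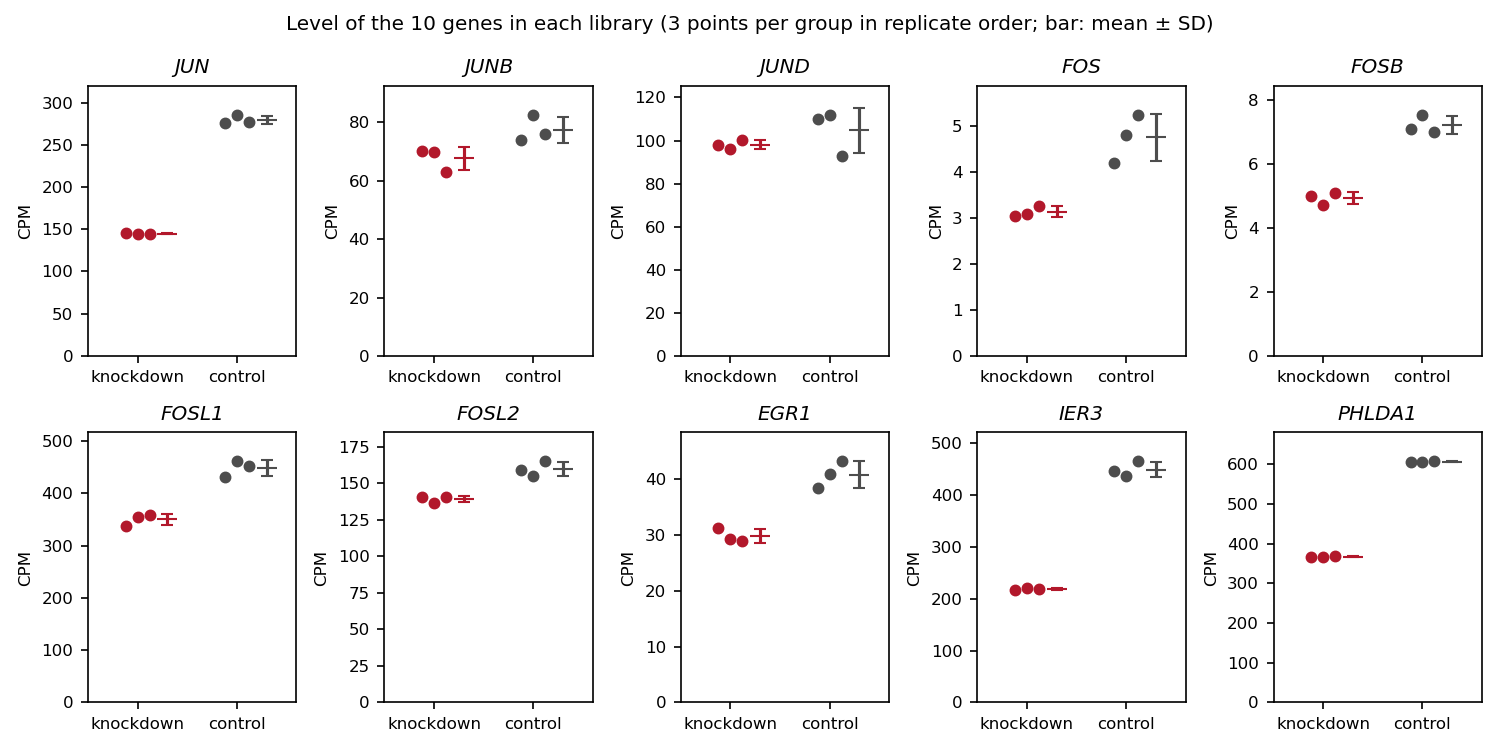
CPM of each of the 10 genes in the 3 knockdown libraries (red, left) and the 3 control libraries (grey, right), with bars for mean ± SD and each axis from 0. The groups are apart in 9 genes, and in JUND the control library at 92.7 CPM lies below all knockdown libraries.

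Among the JUN genes, which encode the main partners of FOS proteins, the response was uneven. JUN (ENSG00000177606, chromosome 1, 58776845 to 58784048, minus strand), the prototype of the family and a main target of JNK, had 145.6, 143.8 and 144.6 CPM in the knockdown libraries, against 275.6, 285.3 and 277.0 CPM in the control libraries. The groups were far apart and each was tight. JUN fell by 0.95 on the log2 scale (SE 0.029, 95% interval -1.01 to -0.89; adjusted p = 1.99e-41, edgeR), to 51.8% of the control level.

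JUNB (ENSG00000171223, chromosome 19, 12791486 to 12793315, plus strand), often a weaker activator than JUN and able to oppose it, changed little. It had 70.1, 69.8 and 63.1 CPM in the knockdown libraries, against 74.0, 82.5 and 75.9 CPM in the control libraries, so the groups lay close together without overlap. JUNB fell by 0.19 on the log2 scale (SE 0.047; adjusted p = 0.00033, edgeR), to 87.4% of the control level. The gene HOOK2 overlaps it on the other strand, and the strandedness of the counts is not given, so reads of the shared stretch cannot be told apart. HOOK2 had a log2 fold change of 0.09, and the part of its reads in the JUNB counts was not tested.

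JUND (ENSG00000130522, chromosome 19, 18279694 to 18281622, minus strand), the JUN gene that is expressed steadily rather than as an immediate early gene, did not pass the test. It had 97.9, 95.9 and 100.1 CPM in the knockdown libraries, against 109.8, 111.9 and 92.7 CPM in the control libraries, and the groups overlapped through control replicate 3. Its log2 fold change was -0.10 (95% interval -0.22 to 0.02; adjusted p = 0.166, edgeR). Without control replicate 3 it was -0.18 and passed (adjusted p = 0.000182, edgeR), so the absence of a call rests on that library.

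FOSL1 (ENSG00000175592, chromosome 11, 65892049 to 65900573, minus strand), which encodes FRA1, an ERK-stabilised FOS protein known from invasive carcinoma cells, was the most abundant FOS message by far. It had 338.5, 354.2 and 358.5 CPM in the knockdown libraries, against 431.7, 461.3 and 453.1 CPM in the control libraries, with a clear gap between the groups. FOSL1 fell by 0.36 on the log2 scale (SE 0.026; adjusted p = 2.98e-20, edgeR), to 78.1% of the control level.

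FOSL2 (ENSG00000075426, chromosome 2, 28392448 to 28417317, plus strand), which encodes the related FRA2, fell less. It had 140.7, 136.5 and 140.3 CPM in the knockdown libraries, against 159.1, 155.0 and 164.9 CPM in the control libraries. The groups did not overlap, and the fall was 0.20 on the log2 scale (SE 0.033; adjusted p = 4.15e-07, edgeR), to 87.2% of the control level.

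FOS and FOSB, the classic immediate early FOS genes, were at the bottom of the range in both groups. FOS (ENSG00000170345, chromosome 14, 75278826 to 75282230, plus strand) had 55, 53 and 54 counts in the knockdown libraries, against 77, 90 and 98 counts in the control libraries, or 3.05, 3.09 and 3.27 CPM in the knockdown against 4.204, 4.805 and 5.241 CPM in the control. FOS fell to 66.0% of the control level (log2 fold change -0.60, 95% interval -0.96 to -0.24; adjusted p = 0.00371, edgeR). The groups did not overlap, the interval was the widest of the 10 genes, and the control libraries were more scattered than the knockdown libraries.

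FOSB (ENSG00000125740, chromosome 19, 45467995 to 45475179, plus strand) had 90, 81 and 84 counts in the knockdown libraries, against 130, 141 and 131 counts in the control libraries. It fell to 68.4% of the control level (log2 fold change -0.55, 95% interval -0.84 to -0.26; adjusted p = 0.000947, edgeR), with no overlap between the groups. It overlaps ERCC1, a DNA repair gene on the other strand with 1127 to 1276 counts in the knockdown libraries and 1256 to 1483 in the control libraries. ERCC1 had a log2 fold change of -0.095, and the part of its reads in the FOSB counts was not tested. Under limma on log2(FPKM + 1) the log2 fold change was -0.31 for FOS and -0.27 for FOSB, and both passed.

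EGR1 (ENSG00000120738, chromosome 5, 138465479 to 138469303, plus strand), a zinc finger factor that growth factors and serum induce together with FOS, had 31.2, 29.3 and 28.8 CPM in the knockdown libraries, against 38.3, 40.9 and 43.2 CPM in the control libraries. The groups were apart. EGR1 fell by 0.45 on the log2 scale (SE 0.063; adjusted p = 3.24e-09, edgeR), to 73.0% of the control level. Its corepressors NAB1 and NAB2 did not pass the test, with log2 fold changes of 0.06 and -0.05.

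IER3 (ENSG00000137331, chromosome 6, 30743199 to 30744548, minus strand), an ERK and NF-kB target known for protecting cells from apoptosis, changed most of the 10. It had 216.9, 221.3 and 218.2 CPM in the knockdown libraries, against 445.7, 436.1 and 465.0 CPM in the control libraries. IER3 fell by 1.04 on the log2 scale (SE 0.027, 95% interval -1.09 to -0.98; adjusted p = 2.34e-46, edgeR), to 48.7% of the control level. The antisense gene IER3-AS1 held at most 2 counts in any library.

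PHLDA1 (ENSG00000139289, chromosome 12, 76025447 to 76031776, minus strand), a pleckstrin homology-like protein induced by growth factor signalling, had 367.7, 367.7 and 368.2 CPM in the knockdown libraries, against 605.0, 607.2 and 607.6 CPM in the control libraries. The libraries of each group were almost identical for this gene. PHLDA1 fell by 0.72 on the log2 scale (SE 0.023; adjusted p = 3.62e-40, edgeR), to 60.6% of the control level.

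**Figure D2:**
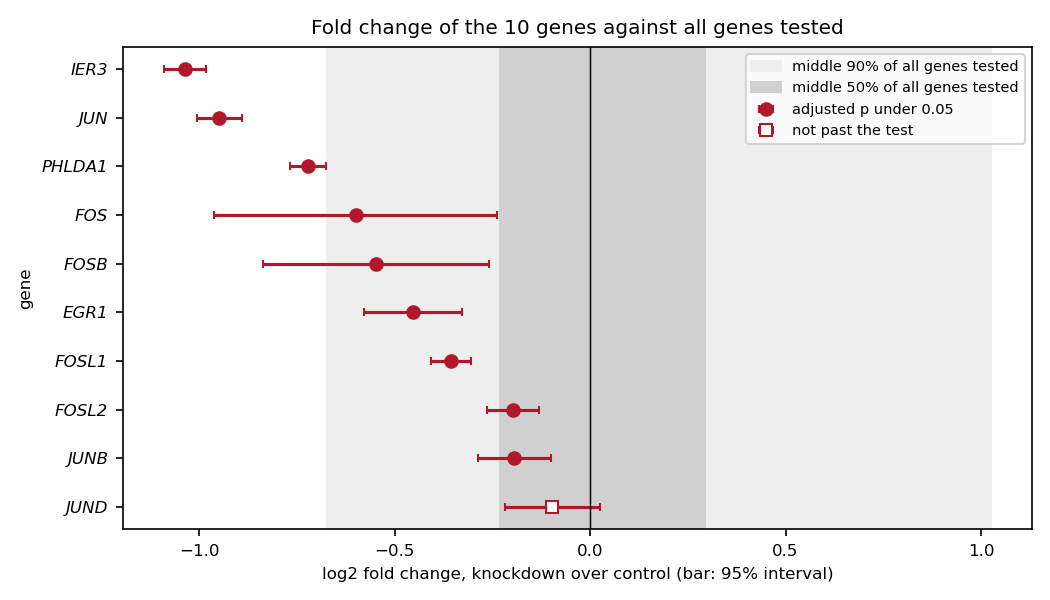
Log2 fold change of the 10 genes, knockdown over control, with 95% intervals (filled circles passed the test, the open square did not). The shaded bands hold the middle 90% and 50% of all 15374 genes tested; IER3, JUN and PHLDA1 lie left of both bands, and JUND, JUNB and FOSL2 lie inside the darker one.

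Levels of different genes were compared per length, on the deposited FPKM scale. In the knockdown the order of mean FPKM was FOSL1 (188.0), IER3 (164.1), PHLDA1 (62.97), JUND (51.4), JUN (40.4), JUNB (37.4), FOSL2 (19.7), EGR1 (9.61), FOS (0.996) and FOSB (0.899). In the control IER3 (328.4 FPKM) stood above FOSL1 (234.8 FPKM) and JUN (76.1 FPKM) above JUND (53.7 FPKM), and the other 6 genes held the same places. The change of place between JUN and JUND was clear in single libraries, with JUN at 40.2 to 40.7 FPKM and JUND at 50.4 to 52.5 FPKM in the knockdown, and JUN at 75.1 to 77.8 FPKM and JUND at 47.4 to 57.3 FPKM in the control. Among neighbours, the values of FOS (1.303 to 1.624 FPKM) and FOSB (1.246 to 1.339 FPKM) overlapped in the control.

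The pool of JUN messages was made up differently in the 2 groups, which is given as a description with no test. JUN made up 31.3 ± 0.28% of the summed JUN family FPKM in the knockdown and 44.4 ± 1.5% in the control (SD, n = 3 each), while JUND made up 39.8 ± 1.1% in the knockdown and 31.2 ± 2.0% in the control. The sum was 129.3 ± 1.57 FPKM in the knockdown and 171.6 ± 7.90 FPKM in the control, or 75.3% of the control. The FOS family kept nearly the same makeup, with FOSL1 at 89.7 ± 0.36% of the summed FPKM in the knockdown and 90.5 ± 0.38% in the control. FOS and FOSB each gave under 1% in every library, and the FOS family sum was 209.5 ± 5.44 FPKM in the knockdown and 259.6 ± 8.15 FPKM in the control, or 80.7%. These shares are of messages and say nothing of protein or of dimers.

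**Figure D3:**
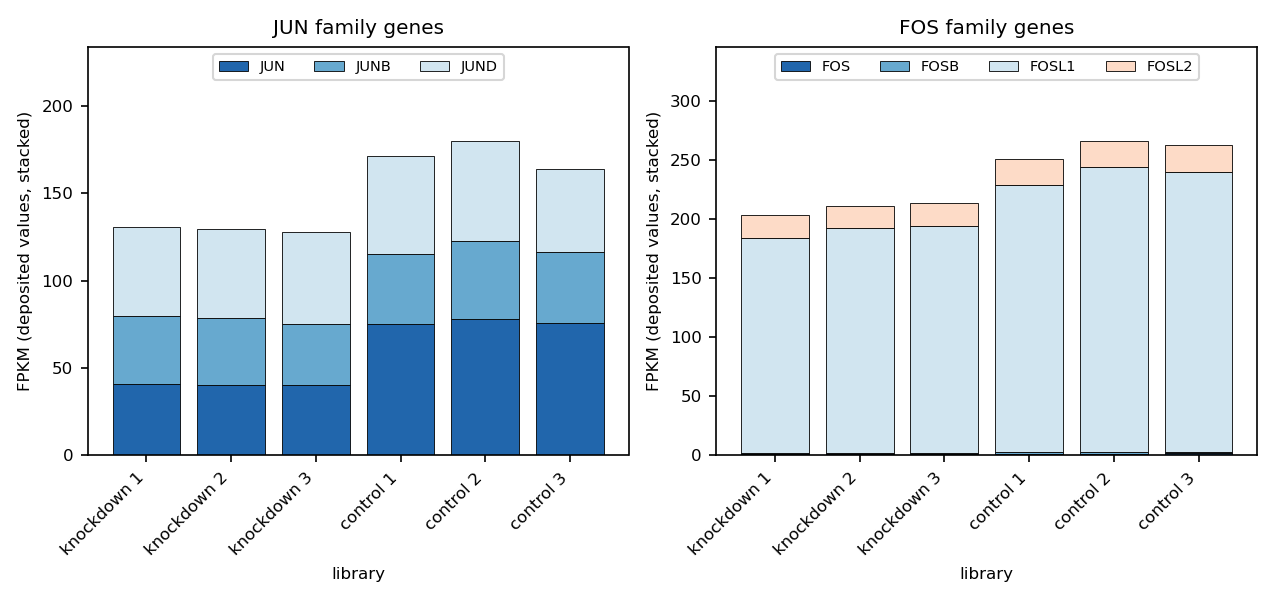
Stacked deposited FPKM of the JUN genes (left panel) and FOS genes (right panel) in each library, knockdown libraries first. The JUN segment is about 40 FPKM in the knockdown and 75 to 78 FPKM in the control, and FOSL1 fills about 90% of every FOS bar.

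Ratios within a library do not depend on how libraries are scaled to one another, and 5 were tested by the exact two-sided permutation test, which with 3 libraries against 3 cannot go below p = 0.1. The ratio of JUN to JUND was 0.792, 0.798 and 0.769 in the knockdown libraries, against 1.34, 1.36 and 1.59 in the control libraries. This is a log2 difference of -0.86 (SE 0.082; exact p = 0.1, adjusted 0.125 over the 5 ratios), with no overlap. The ratio of IER3 to EGR1 was 16.2 to 17.6 in the knockdown and 24.8 to 27.0 in the control, a log2 difference of -0.58 (exact p = 0.1, adjusted 0.125). Smaller differences without overlap were found for FOSL1 to FOSL2, at 9.13 to 9.85 in the knockdown and 10.3 to 11.3 in the control, and for FOS to FOSL1, at 0.00517 to 0.0054 in the knockdown and 0.00577 to 0.00685 in the control (exact p = 0.1, adjusted 0.125, for each). JUNB to JUND overlapped, at 0.665 to 0.767 in the knockdown and 0.71 to 0.863 in the control (exact p = 0.4). Gaps between the groups were common: 29.4% of all single genes tested had all 3 knockdown CPM below all 3 control CPM. The share of such gaps over other pairs of genes was not computed.

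**Figure D4:**
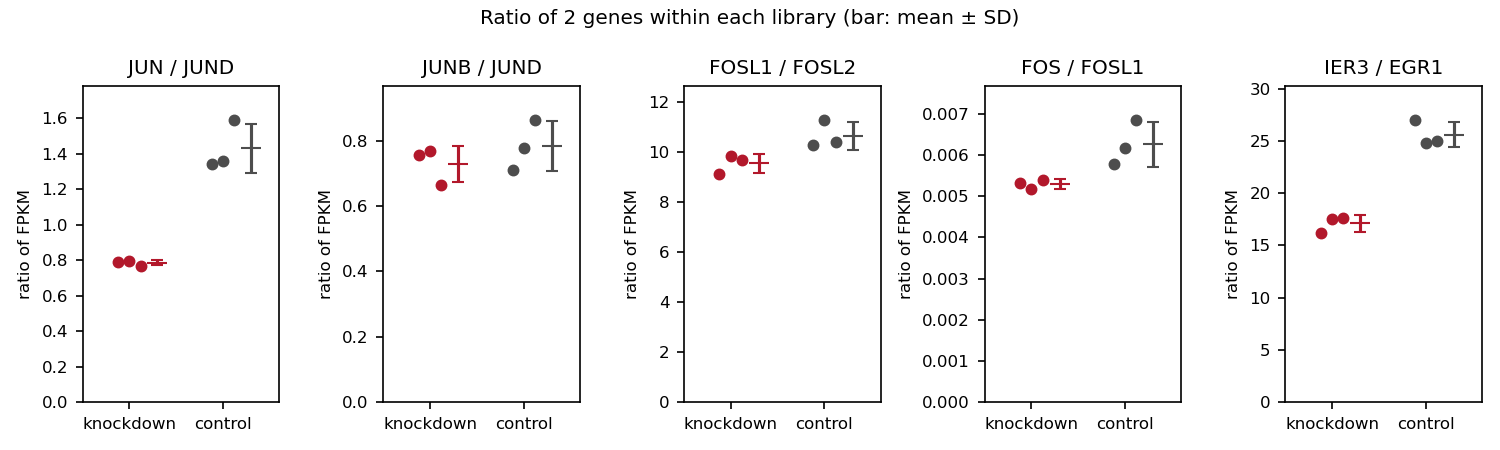
Ratio of the FPKM of 2 genes within each library, knockdown (red, left) and control (grey, right), with bars for mean ± SD and each axis from 0. The groups are apart in 4 ratios, most clearly JUN to JUND, and overlap in JUNB to JUND. The share of such gaps over other pairs of genes was not computed.

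Rapid decay of immediate early messages is tied to AU-rich elements in their 3′ UTRs, which hold repeats of ATTTA (as DNA). In the GENCODE 29 transcript with the longest coding sequence, ATTTA was present in the 3′ UTR of all 10 genes and of 68.1% of the 12356 tested genes searched. Its density was highest in IER3 (8.14 per kilobase) and FOS (6.20), and 6 of the 10 genes lay above the median of 1.56 per kilobase over all genes searched. FOSL1 (1.5 per kilobase), JUND (1.47), FOSB (1.39) and EGR1 (0.81) lay below it. The part of these elements in the falls was not tested. The nine-letter form TTATTTATT was found in 3 of the 10 genes and in 8.13% of all genes searched. These 3 were FOS, FOSL2 and PHLDA1, with 3′ UTRs of 806, 4864 and 4672 bases, against a median of 997 bases over all genes searched. A longer 3′ UTR has more places for a match, and these shares are not corrected for length. The sites of FOS and PHLDA1 are shown as 29 bases each, with the element in capitals. The base number given is that of the first capital letter, and the 10 bases before it are shown too.
FOS, from base 646 of the 3′ UTR: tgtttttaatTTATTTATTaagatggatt
PHLDA1, from base 314 of the 3′ UTR: tgatttatgaTTATTTATTagtttttttt

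Other bZIP proteins that pair with JUN or FOS proteins, or compete with them, changed in both directions. Of 12 listed, 9 were tested, 5 fell, 2 rose and 2 did not pass (median log2 fold change -0.20). Calls in both directions were common among all genes tested, of which 27.4% fell and 26.9% rose. The small MAF genes MAFK (-0.70) and MAFF (-0.48), whose products pair with FOS and NRF proteins, fell, while MAFG rose by 0.30. The stress-induced ATF3 had 41.6 ± 1.85 CPM in the knockdown and 66.2 ± 4.11 CPM in the control (SD, n = 3 each) and fell by 0.67 (adjusted p = 2e-18, edgeR). BATF3, at 1.77 CPM in the knockdown and 3.84 CPM in the control, fell by 1.11 (by 0.55 under limma on log2(FPKM + 1)), and JDP2, a repressor that pairs with JUN proteins, rose by 1.15 on the log2 scale to 34.5 ± 2.80 CPM, against 15.6 ± 2.27 CPM in the control (adjusted p = 2.7e-19, edgeR).

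Other immediate early genes did not all follow the 10. Of 31 listed, 29 were tested, 13 fell, 6 rose and 10 did not pass, with a median log2 fold change of -0.13. Among all genes tested, 27.4% fell and 26.9% rose. The small GTPase gene RHOB had 46.0 ± 1.71 CPM in the knockdown and 89.8 ± 2.24 CPM in the control and fell by 0.97, and IER5 (-0.60), KLF10 (-0.73) and KLF6 (-0.53) fell with it. The glucocorticoid- and serum-induced kinase SGK1 rose by 0.98 on the log2 scale to 211.7 ± 2.55 CPM, against 107.7 ± 1.99 CPM in the control (adjusted p = 2e-39, edgeR). The antiproliferative BTG2 (1.03), the epithelial factor KLF4 (0.80) and the matricellular CCN2 (0.67) also rose.

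Genes driven by ERK signalling, among them feedback inhibitors that limit it and outputs such as the ETV factors and CCND1, were divided as well. Of 17 tested, 9 fell, 6 rose and 2 did not pass (median -0.14), where 27.4% of all genes tested fell and 26.9% rose. The MAP kinase phosphatase genes DUSP1 (-1.20), DUSP7 (-0.85), DUSP5 (-0.76) and DUSP4 (-0.31) fell, DUSP1 to 14.7 ± 1.37 CPM in the knockdown, against 33.8 ± 1.63 CPM in the control (adjusted p = 4.75e-22, edgeR). The EGF receptor inhibitor ERRFI1 (0.33), the ETS factors ETV5 (0.34) and ETV1 (0.59) and the feedback inhibitor SPRY1 (0.91) rose, with SPRY1 at 0.55 and ETV1 at 0.28 under limma on log2(FPKM + 1). Families were not uniform, as a look at further members after their values were seen showed. The phosphatase gene DUSP6 rose by 0.18, and the ETS factor ETV4 fell by 0.22 (adjusted p = 0.00297, edgeR). The feedback inhibitors SPRY2 (-0.86), SPRY4 (-0.26) and SPRED3 (-1.17, or -0.29 under limma on log2(FPKM + 1)) fell. DUSP2 rose by 0.29 but did not pass under 5 of 16 alternatives, with the adjusted p between 0.0175 and 0.305 (edgeR, DESeq2 and limma). Among them, it was 0.24 without control replicate 2, 0.23 without control replicate 3 and 0.18 without knockdown replicate 1.

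Upstream, 16 MAP kinase genes were tested, of which 6 fell, 1 rose and 9 did not pass (median -0.02). Shares over all genes tested were 27.4% that fell and 26.9% that rose. The genes for the ERK kinase MAP2K1 (-0.48), MAP2K3 (-0.35) and the ribosomal S6 kinases RPS6KA2 (-0.24) and RPS6KA3 (-0.17) fell, and the ERK gene MAPK3 rose by 0.47. With upper-quartile scaling 4 rose, with library size alone 3, and without control replicate 2 or without knockdown replicate 3 2. Of 8 factors that bind immediate early promoters, 3 fell and 4 rose (median 0.07), against the same 27.4% and 26.9% of all genes tested. ELK3 (-0.53), a partner of serum response factor, the coactivator MRTFA (-0.56) and CREB1 (-0.21), which binds the TGACG element, fell, while SRF itself rose by 0.38 to 103.4 ± 4.16 CPM, against 79.4 ± 3.24 CPM in the control, and MRTFB rose by 0.28. ELK4 and ELK1 rose by 0.16 each, but ELK4 did not pass without control replicate 2 (0.12, adjusted p = 0.0535, edgeR), nor ELK1 without control replicate 3 (0.13, adjusted p = 0.0571, edgeR) or without knockdown replicate 1 (0.13, adjusted p = 0.0684, edgeR). Over their alternatives the adjusted p ran from 0.000271 to 0.0535 for ELK4 and from 0.000699 to 0.0684 for ELK1.

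Genes known to carry AP-1 sites in keratinocytes or carcinoma cells were split evenly: of 19 tested, 8 fell, 8 rose and 3 did not pass, with a median of 0.16. The adhesion receptor gene CD44 had 2000 ± 28.8 CPM in the knockdown and 2648 ± 87.4 CPM in the control (SD, n = 3 each) and fell by 0.41 on the log2 scale. The EGF receptor ligand HBEGF (-0.31) and the cornified envelope gene SPRR1B (-1.01) fell too. The chemokine genes CCL2 (2.31) and CXCL8 (0.49), the collagenase MMP13 (1.65) and the urokinase gene PLAU (0.63) rose, PLAU to 1596 ± 22.7 CPM in the knockdown, against 1033 ± 37.8 CPM in the control. Over all 7 related lists, 44 of 100 tested genes fell and 27 rose, where 27.4% and 26.9% of all genes tested did; the share that rose is that of all genes.

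**Figure D5:**
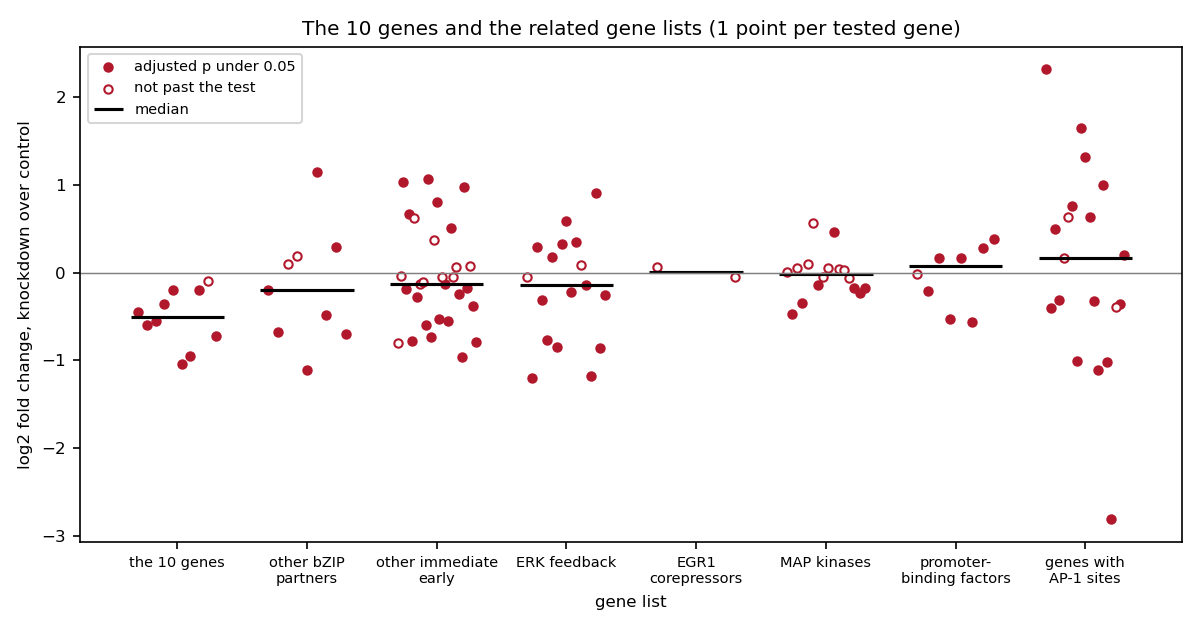
Log2 fold change, knockdown over control, of the 10 genes and of the tested genes of 7 related lists (filled points passed the test, open points did not, lines are medians). All 10 genes lie below 0, while the related lists, but for the 2 EGR1 corepressors, have genes past the test on both sides of 0.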

How the data were processed

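Total RNA was extracted with TRIzol, and the authors deposited raw counts and FPKM values per gene for 6 libraries. The submitters' processing notes name GRCh38.p13 and Bowtie, with no role. Counter, annotation, gene lengths and strandedness are not given in the sources used. The deposited tables supplied symbols and coordinates, and their columns were matched to samples by prefix (N for control, SH for knockdown) and number. The counts were tested with edgeR 4.0.16 under R 4.3.3 (filterByExpr with a minimum count of 10, TMM factors of 0.9875 to 1.013, robust quasi-likelihood F test with group as the only term, Benjamini-Hochberg adjustment over all genes tested, threshold 0.05), after a test on simulated data. CPM use TMM-scaled totals. The biological coefficient of variation was 3.13%. Libraries of a group differed by more than counting noise (chi-square per degree of freedom 1.86 to 2.78). Alternatives were DESeq2 1.42.0, limma 3.58.1 on the log2 scale (FPKM with a pseudocount of 1 or of 0.1, with 1 also without genes whose mean FPKM was under 1), other scalings, no filter and a stricter filter on low counts, a replicate block and each library left out. The 10 genes and the lists were chosen with earlier results of these data known. From each related list up to 4 genes per direction with the smallest adjusted p are named, or any member of lists of 12 or fewer; 1 named gene and 1 sequence are not reported here.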

Additional observations from a re-analysis of the deposited data

How the results depend on the processing

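Each of the 9 falls kept its direction and its call under all 16 alternatives (DESeq2, 3 other scalings, no filter, a stricter filter, the replicate block, each of 6 libraries left out and 3 limma fits on FPKM), with log2 fold changes of -1.06 to -0.99 for IER3, -0.96 to -0.90 for JUN, -0.68 to -0.31 for FOS and -0.57 to -0.27 for FOSB. The smallest falls of FOS and FOSB came from limma on log2(FPKM + 1), whose pseudocount is about as large as their FPKM. The number of the 10 genes that fell was 9 under 15 of them and 10 without control replicate 3, where JUND passed (log2 fold change of JUND -0.182 to -0.05 with 1 library left out). The same replicate numbers stand in both groups, but libraries of 1 number did not deviate together (r of 0.003, -0.001 and -0.006 over genes), and with the replicate number as a block the log2 fold change of JUN was -0.95, and no call among the 10 genes changed. Over all genes, 3361 to 4800 rose and 3292 to 4214 fell. All ratios kept their sign. Low counts limit FOS and FOSB most. Of the 9 calls, that of JUNB came closest to being lost, with an adjusted p of 0.0355 to 0.0404 under the 3 limma fits. The log2 fold change of JUNB ran from -0.23 to -0.145 over the alternatives.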

Other observations

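Members of the ZFP36 family, which bind AU-rich elements and speed the decay of such messages, were looked at after their values were seen. ZFP36L1 had 272.9 ± 5.77 CPM in the knockdown and 355.7 ± 1.22 CPM in the control (SD, n = 3 each) and fell by 0.38 on the log2 scale, and ZFP36L2 fell by 0.80. ZFP36, the best known of them, had 25.2 ± 0.776 CPM in the knockdown and 23.8 ± 0.677 CPM in the control and did not pass (log2 fold change 0.08; adjusted p = 0.381, edgeR), although it passed under 3 of 16 alternatives, with the adjusted p at 0.0358 to 0.628. Also picked after its value was seen, the nuclear receptor gene NR4A1, an immediate early gene, rose by 0.51 (0.22 under limma on log2(FPKM + 1)) to 6.19 ± 0.917 CPM, against 4.34 ± 0.403 CPM in the control, while IER2 did not pass (-0.11; adjusted p = 0.0933, edgeR).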
